A study of Arabidopsis thaliana with 10 samples.

Results

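The 4 h time point of an AGAMOUS induction experiment in Arabidopsis inflorescences is described here from its pair of cDNA arrays, 2 of the 10 arrays of the series. The plants carried ag-1, a mutant allele of AGAMOUS, together with the transgene 35S::AG-GR, and both genotype elements were shared by every sample on every array. Each 4 h array set inflorescences given a dexamethasone-containing solution for 4 h against inflorescences given a control solution for 4 h, and the channels were exchanged between the arrays. Dexamethasone was in channel 1 on the array numbered 1 and in channel 2 on the array numbered 2. The pair of 0 h arrays, labelled in the same way, served as background, and the pairs at 8, 10 and 16 h entered the shared fit and were compared with 4 h. All probes measured on both 4 h arrays were taken, which were 10608 of 10816. No label says if the 2 arrays held RNA of separate plants, and the same holds for the pairs of the other times. The p-values below rest on the spread within pairs pooled over all 10 arrays, which may be technical only. The 35S promoter is active in most tissues, so that the fusion is not limited to the cells that normally express AGAMOUS.

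AGAMOUS encodes a MADS-domain transcription factor of the floral C class. It specifies stamens and carpels and ends the activity of the floral meristem, and flowers without it form petals and sepals in place of the reproductive organs. In an AG-GR fusion the steroid-binding part of the rat glucocorticoid receptor holds the protein in the cytoplasm until dexamethasone is given, after which it can enter the nucleus. The first hours after induction are thus when its direct targets are expected to begin to respond. Textbook targets include SPOROCYTELESS, a regulator of spore formation, and the gene CRABS CLAW, which acts in carpel growth.

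None of these genes could be read from the arrays. The probe identifiers matched 0 entries of the RefSeq gene table, so no probe is named by a gene, no sequence is shown, and the lists of floral organ, stamen, carpel, green tissue, hormone and cell cycle genes could not be applied. The labelled tissue could not be checked against marker genes for the same reason. Identifiers of the form GP005D3 were read as plate GP005, row D and well 3, a reading of the identifiers that no file states, and one that makes 114 plates. Probes in neighbouring wells may stand for related clones.

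Values are signed log ratios, read as base 10. The labelled channels give the orientation, and the ratios of the array numbered 2 were given the other sign (turned). Which side means a higher level with dexamethasone is not stated in the sources used here. The results therefore refer to a positive and a negative side, and a fold is the size of a ratio with no direction. A fold holds only if the base is 10. In bulk tissue a change in the number of cells of a type and a change in RNA per cell cannot be told apart.

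The response at 4 h was small for nearly all probes. The pair mean of the turned ratios, which is the 4 h value, had a median size of 1.13-fold, a 90th percentile of 1.36-fold and a 99th percentile of 1.77-fold over the 10608 probes. At 0 h the same percentiles were 1.11-fold, 1.31-fold and 2.08-fold over 9958 probes. The bulk of the values was thus slightly wider at 4 h than at 0 h, while the upper tail was wider at 0 h. Values at the limits of 2 and -2 numbered 26 on the first 4 h array and 18 on the second, against 676 on the first 0 h array and 25 on the second. The first 0 h array also stood apart in its ratios, with r between -0.0288 and -0.00593 to the 4 h arrays. The standard deviation over probes was 0.155 on the first 4 h array and 0.116 on the second, so that the first weighs more in a pair mean.

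The 4 h arrays shared little of their turned signal. Over the 10608 probes Pearson's r was -0.168 and Spearman's rho -0.215, and 42.2% of probes lay on 1 side on both arrays. At 0 h r was 0.0271 and the share 54.5%. These correlations run across probes, which share an array, a print and a labelling and are not independent replicates. An r below 0 after turning means that the larger shared part of the arrays had 1 sign in the ratios as deposited. Whether this part belongs to the channel, or whether the exchange of channels differs from the labels, was not tested, and the orientation used here rests on the labels alone. The first 4 h array correlated with later arrays of its own number at 0.409, 0.404 and 0.362 (8, 10 and 16 h) and with those of the other number at -0.114, -0.108 and -0.179. The second correlated with later arrays of its own number at 0.595, 0.599 and 0.608, and with those of the other number at 0.0626, 0.0342 and 0.0364. With the second 0 h array the first had r of -0.242 and the second 0.419.

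Tests of single probes against 0 gave no call at 4 h. In a two-sided limma fit of all 10 arrays with 1 coefficient per time, 0 of 10587 probes passed an adjusted p of 0.05, which is 0.0% of those tested. At an unadjusted p under 0.05 stood 296 probes, 2.8% of those tested, against 196 or 1.98% at 0 h. Both shares lie under 5%, and this fit counts a dye effect of a probe as spread. With the array number as a block, which takes up such an effect, 0 probes passed, with 813 (7.68%) at an unadjusted p under 0.05 at 4 h and 493 (4.97%) at 0 h. The lowest p belonged to a probe with a 4 h value of 0.287 (SE 0.0582, n = 2 arrays, limma adjusted p = 0.999). A fit of the 4 h arrays alone, which rests on that pair only, called 17 of 10587 probes, 2 positive and 15 negative. Of these 17, 14 lay in plates GP004 and GP005, which are described below. In that fit all leading probes named below had the same SE of 0.104, so that a call among them follows the size of the value.

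The difference between 4 h and 0 h was tested in the same fit. It gave 0 of 9907 probes by limma, with 179 (1.81%) at an unadjusted p under 0.05. With the array number as a block 0 passed as well, with 606 (6.12%) at an unadjusted p under 0.05. This comparison rests on the 0 h pair: without the second 0 h array, 53 probes passed, 3 positive and 50 negative, and without the first 0 passed. In the first of these fits the remaining 0 h array is assumed to vary like the other times.

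A descriptive set was formed from probes whose turned ratio was at least 1.5-fold on the same side on each 4 h array. It held 96 probes, 45 on the positive side (0.424% of 10608) and 51 on the negative side (0.481%). At 0 h the same rule found 17 on the positive side (0.171% of 9958) and 15 on the negative side (0.151%). The set at 4 h was thus larger than at 0 h on both sides. Probes of the same size with opposite signs after turning, which do not follow the labelled treatment, were more frequent and differed more, with 234 at 4 h (2.21%) against 32 at 0 h (0.321%). The set of 96 probes on the same side was smaller than the set of any later time. The rule found 75 positive (0.71%) and 133 negative probes (1.26%) at 8 h, 79 (0.746%) and 150 (1.42%) at 10 h, and 67 (0.633%) and 121 (1.14%) at 16 h. No test is attached to these counts. By the smaller of its paired ratios, the weakest positive member stood at 1.5001-fold and the nearest probe outside at 1.4942-fold. For the negative members these values were 1.5011-fold and 1.4966-fold. At 2-fold on both 4 h arrays stood 17 probes, 3 positive and 14 negative, and at 3-fold 7, all negative.

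**Figure D1:**
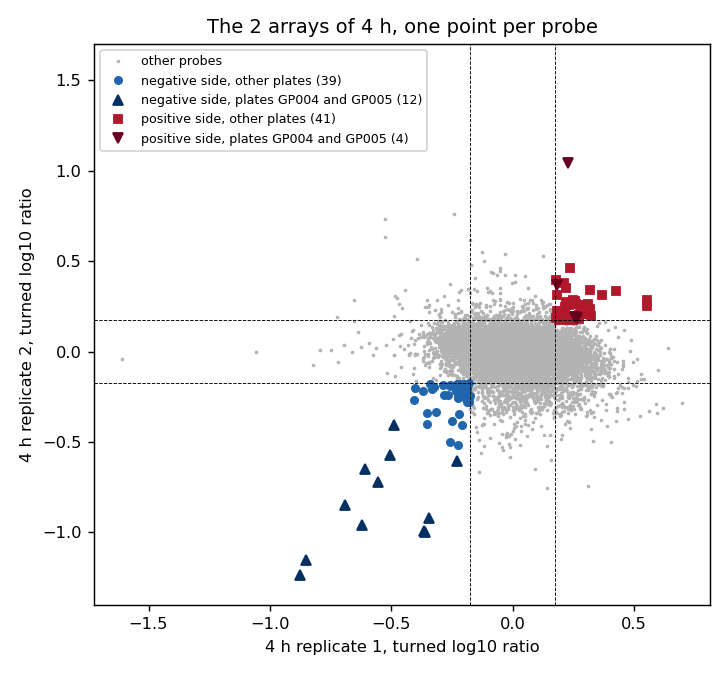
Turned log10 ratio of every probe on the first 4 h array (horizontal) against the second (vertical), with dashed lines at 1.5-fold. The cloud of other probes tilts downward with an r of -0.168, the 41 and 4 positive probes sit at the upper right, and at the lower left the 12 negative probes of plates GP004 and GP005 include the probes farthest from 0 on both arrays at once.

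**Figure D2:**
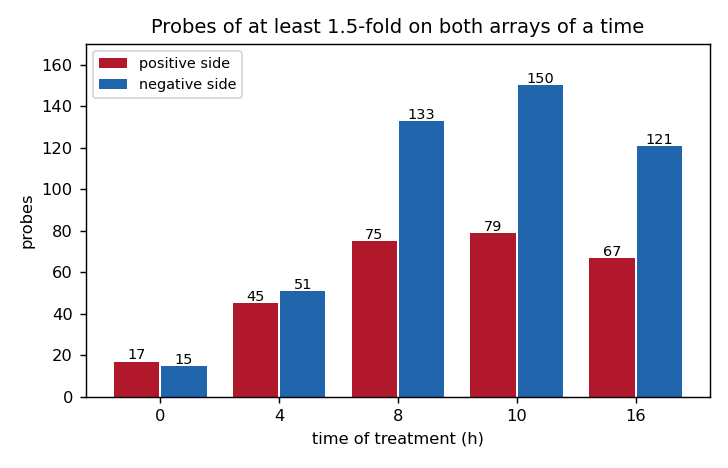
Number of probes of at least 1.5-fold on 1 side on both arrays of a time, by time in h, with the positive side left and the negative side right. The counts at 4 h (45 and 51) lie above those at 0 h (17 and 15) and below those at 8, 10 and 16 h, and the sides are near equal at 0 and 4 h but not later.

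Position set a part of the probes apart, more so on the negative side. Of the 51 negative probes 12 lay in plates GP004 and GP005 (23.5%), which hold 192 of the 10816 probes (1.78%). These 12 include the pair means farthest from 0. Of the 45 positive probes 4 lay in these plates (8.89%). The largest positive pair mean was among them, at 4.32-fold, against at most 2.62-fold for positive probes elsewhere. The ratios of the 12 negative probes ran from -0.878 to -0.228 on the first 4 h array (median -0.530) and from -1.23 to -0.408 on the second (median -0.886). On the second 0 h array all 12 were negative as well, from -0.932 to -0.287 (median -0.629), and on the first 0 h array all 12 were positive, from 0.177 to 0.930 (median 0.657). Large ratios thus stood in these wells before any treatment time. All 12 stayed negative on each of the 6 later arrays. The spread of 4 h values within a plate was widest in the same plates, with a standard deviation of 0.249 in GP005 and 0.166 in GP004, against a median of 0.0810 over the 114 plates. The part of well position or of related clones in these values was not tested.

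The leading probes by the smaller of the paired ratios were GP005D3 and GP005D2 on the negative side and GP083A6 and GP102E6 on the positive side. GP005D3 had -0.878 and -1.23 on the 4 h arrays, a mean of -1.06 ± 0.252 (SD, n = 2) or 11.4-fold, against 0.900 and -0.932 on the 0 h arrays. Its limma adjusted p at 4 h was 0.999, and 0.0770 when the one or the other 0 h array was left out. GP005D2 lies in the next well and had -0.853 and -1.15 at 4 h, a mean of -1.002 ± 0.211 (SD, n = 2) or 10.0-fold, against 0.930 and -0.895 at 0 h. In both, the second 0 h array lay as low as the 4 h arrays while the first lay on the other side, so that the groups overlap. At 8, 10 and 16 h GP005D3 had pair means of -0.874, -0.974 and -0.987, and GP005D2 had -0.907, -0.990 and -1.03, near the 4 h level.

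On the positive side GP083A6 had 0.427 and 0.334 on the 4 h arrays, a mean of 0.381 ± 0.0660 (SD, n = 2) or 2.40-fold, against -0.0834 and 0.282 on the 0 h arrays. Both 4 h values lay above both 0 h values, an order that the choice on the 4 h ratios favours. The share of all probes with that order was not counted. The limma adjusted p at 4 h was 0.999. GP083A6 had 0.550 and 0.277 at 8 h but -0.121 and 0.0793 at 10 h, so that the ratio was not kept. GP102E6 had 0.318 and 0.342 at 4 h, a mean of 0.330 ± 0.0169 (SD, n = 2) or 2.14-fold, against 0.0416 and -0.275 at 0 h. Its 4 h arrays were close to each other, but its later arrays were not, with 0.881 and -0.177 at 8 h, 0.988 and 0.0281 at 10 h and -0.558 and 0.215 at 16 h. The limma adjusted p at 4 h was 0.999 here too.

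**Figure D3:**
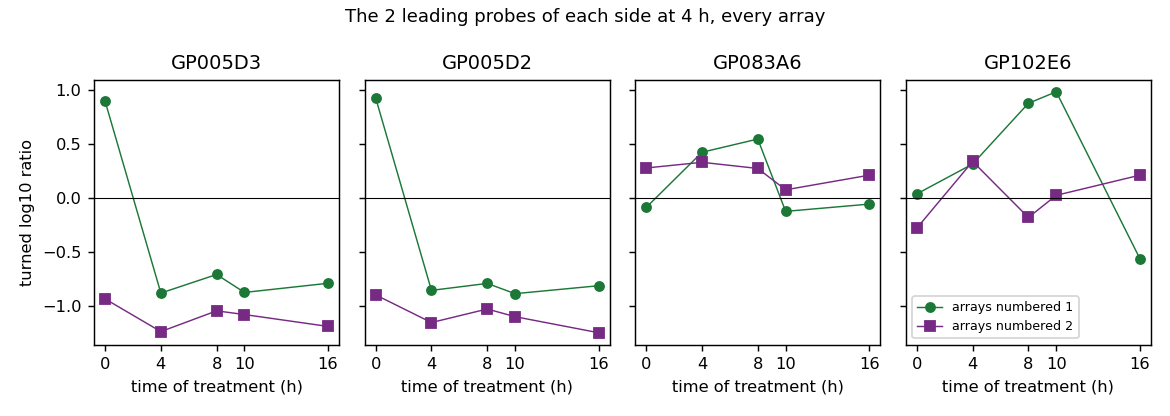
Turned log10 ratio of the 2 leading probes of each side on every array, by time in h, with circles for arrays numbered 1 and squares for arrays numbered 2. The left pair is far below 0 on all arrays but the first of 0 h, and the right pair is above 0 on both 4 h arrays and scattered later.

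Of the 10 leading probes on each side, the negative ones all lay in GP004 and GP005 and were at least 2.29-fold on both 4 h arrays. All 10 were negative on both arrays at 8, 10 and 16 h, and 0 of 10 at 0 h. The 10 positive ones were spread over 7 plates and were at least 1.72-fold on both 4 h arrays. They kept their side on both arrays for 5 of 9 measured at 8 h, 5 of 9 at 10 h and 3 of 8 at 16 h, where 23.1%, 21.6% and 20.5% of all probes outside GP004 and GP005 were positive on both.

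Outside GP004 and GP005 the set held 39 negative probes in 27 plates and 41 positive probes in 30 plates. Their pair means had a median of 1.71-fold and reached 2.39-fold on the negative side, and had a median of 1.75-fold and reached 2.62-fold on the positive side. Few lay side by side: 2 of the 39 and 0 of the 41 had a member in the next well of their row. The arrays of other times took no part in choosing them and show whether the 4 h ratios recur. They do not show whether a recurrence belongs to the array number, since the choice used both numbers.

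The negative probes kept their side on both arrays for 32 of 38 measured at 8 h (84.2%), 31 of 39 at 10 h (79.5%) and 19 of 39 at 16 h (48.7%). Over all probes outside the plates 19.3%, 21.4% and 21.6% were negative on both arrays at these times. At 0 h it was 12 of 37 (32.4%), against 27.9% of all probes. Their median was 0.0247 and -0.0550 on the 0 h arrays, -0.226 and -0.233 at 4 h, -0.190 and -0.239 at 8 h, -0.221 and -0.186 at 10 h and -0.156 and -0.102 at 16 h. A ratio of at least 1.5-fold on both arrays was found again for 11, 14 and 7 of them at 8, 10 and 16 h (28.9%, 35.9% and 17.9%), against 1.11%, 1.251% and 1.001% of all probes.

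The positive probes kept their side on both arrays for 27 of 36 measured at 8 h (75%), 21 of 39 at 10 h (53.8%) and 17 of 37 at 16 h (45.9%), against 23.1%, 21.6% and 20.5% of all probes. At 0 h it was 11 of 30 (36.7%), against 26.5%. Their median was 0.0255 and 0.0656 on the 0 h arrays, 0.237 and 0.208 at 4 h, 0.157 and 0.124 at 8 h, 0.153 and 0.115 at 10 h and 0.0982 and 0.114 at 16 h. A ratio of at least 1.5-fold on both arrays was found again for 7, 7 and 2 of them (19.4%, 17.9% and 5.41%), against 0.722%, 0.750% and 0.625% of all probes. On both sides the probes kept their side more often than all probes did at each later time, and the shares were lower at 16 h than at 8 h, with no test attached. The choice on the 4 h arrays makes the 4 h medians larger than those of an unpicked set, and it can carry into later arrays, since arrays of 1 number correlated across times. Of the 41 positive probes only 30 were measured on both 0 h arrays.

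**Figure D4:**
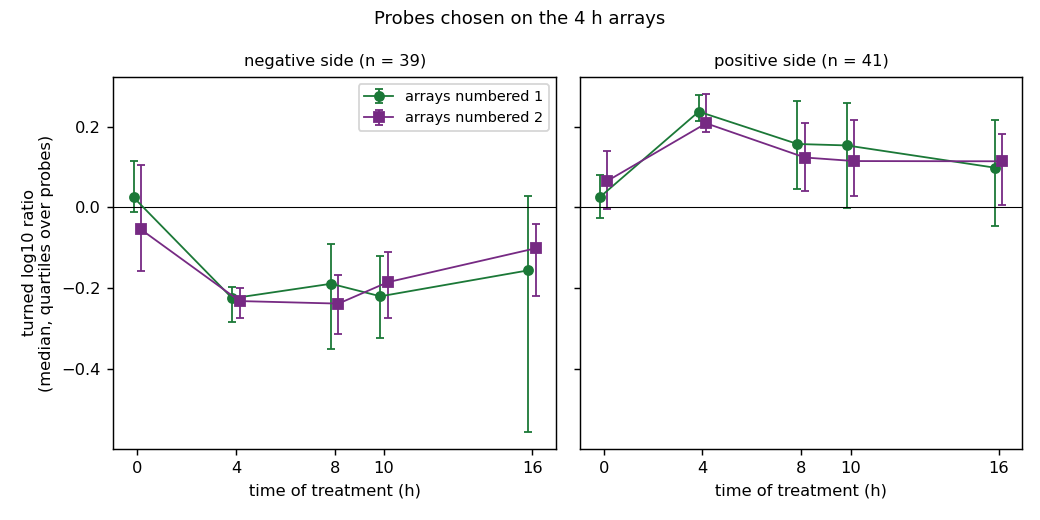
Median turned log10 ratio, with quartiles over probes, of the 39 negative (left) and 41 positive probes (right) chosen on the 4 h arrays outside plates GP004 and GP005, by time in h and array number. The 0 h medians lie near 0, and the later medians stay on the side of 4 h for both array numbers, with wide quartiles at 16 h.

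Arrays of 1 number resembled each other, and the probes above were chosen and read on both numbers. In a stricter reading, probes of at least 1.5-fold on a single 4 h array were read only on arrays of the other number, outside GP004 and GP005. Those chosen as positive on the second 4 h array (297 probes) reached 1.5-fold on the positive side in 27.0% at 8 h, 27.4% at 10 h and 17.7% at 16 h on arrays numbered 1, where all probes gave 13.8%, 14.6% and 16.5%. On the negative side of the same arrays they gave 7.87%, 8.52% and 15.9%, against 8.26%, 8.29% and 11.3% of all probes. At 8 and 10 h the gain was thus on the chosen side, and at 16 h it was not.

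Those chosen as negative on the second 4 h array (697 probes) reached 1.5-fold on the negative side in 19.5%, 15.8% and 24.4% at 8, 10 and 16 h, against 8.26%, 8.29% and 11.3% of all probes. On the positive side they gave 17.5%, 19.3% and 16.7%, against 13.8%, 14.6% and 16.5%. On the first 4 h array itself, the chosen side was reached by 14.9% of the positive and 5.65% of the negative choice, against 14.1% and 10.2% of all probes. The opposite side was reached there by 17.5% of the positive and 26.4% of the negative choice, against 10.2% and 14.1%. At any size 44.0% and 34.6% lay on the chosen side of that array, against 51.0% and 49.0% of all probes. The negative choice as a whole did not shift to its side: 46.7%, 46.7% and 49.8% were negative at 8, 10 and 16 h, against 45.1%, 48.5% and 47.3% of all probes, and its medians were 0.0179, 0.0162 and 0.00293. Its higher shares thus stood in the values of at least 1.5-fold, on both sides at 8 and 10 h and on the negative side at 16 h. The positive choice was positive in 63.7%, 68.1% and 53.5%, against 54.9%, 51.5% and 52.7%. On the first 0 h array 67.4% of the 242 measured were positive too, against 53.4% of all probes. A shift in side was thus present before any treatment time. At least 1.5-fold on the positive side of that array were 4.96%, against 4.78% of all probes.

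The first 4 h array was met mostly on the opposite side. Its 1469 positive choices reached 1.5-fold on the positive side of arrays numbered 2 in 4.11%, 3.08% and 2.94% at 8, 10 and 16 h, against 3.802%, 3.554% and 3.075% of all probes. Its 1064 negative choices reached it on the negative side in 5.78%, 5.41% and 3.32%, under the 8.29%, 8.24% and 5.87% of all probes. On the opposite side the positive choices gave 13.1%, 10.5% and 11.1%, against 8.29%, 8.24% and 5.87% of all probes, and the negative choices gave 6.54%, 5.79% and 6.64%, against 3.802%, 3.554% and 3.075%. Arrays of the other number thus showed these probes more often against the turned direction than along it, relative to all probes.

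The converse reading starts from the later times. Probes of at least 1.5-fold on 1 side on all 6 arrays of 8, 10 and 16 h were chosen, again outside GP004 and GP005, and the 4 h arrays took no part in the choice. There were 40 on the negative side, in 33 plates, and 11 on the positive side, of which 5 lay in plate GP001. On the negative side 29 of 40 were negative on both 4 h arrays (72.5%), against 21.0% of all probes. The first 4 h array had them between -0.402 and 0.309 (median -0.106, 30 of 40 negative) and the second between -0.509 and 0.0785 (median -0.282, 39 of 40 negative). Their 0 h medians were 0.0323 and 0.0969, and 36 of 37 measured at 0 h had a lower pair mean at 4 h than at 0 h. The share of all probes with that order was not counted. By the counts on each array, most of these 40 probes were on their later side at 4 h, more clearly on the second array than on the first. At 0 h 7 of 37 (18.9%) were negative on both arrays, against 27.85% of all probes. Outside the same plates, 10 negative probes were at least 2-fold on all 6 later arrays. Of these 10, 6 were negative on both arrays at 0 h and 6 at 4 h.

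The median 4 h value of these 40 was -0.194, or 1.56-fold, against -0.372, or 2.35-fold, over the later arrays. The 4 h value was a median 48.1% of the later mean, from 3.48% to 83.1%, and it was smaller than the later mean in 40 of 40. At least 1.5-fold on both 4 h arrays were 5 of them (12.5%), against 0.374% of all probes. On the positive side 8 of 11 were positive on both 4 h arrays, against 21.1% of all probes, with medians of 0.178 on the first and 0.0710 on the second and a median 4 h value of 0.159 or 1.44-fold. This was a median 56.0% of the later mean, and smaller than it in 10 of 11. Their 0 h medians were 0.0224 and -0.0834, and 10 of 10 measured had a higher pair mean at 4 h than at 0 h. Here too the share of all probes was not counted, and nothing is read from the count.

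The choice makes the later values of these probes larger than those of an unpicked set, so that a part of the gap to 4 h follows from it. For comparison each later time was held back in turn and read in probes chosen on the other 3 treated times. On the negative side the held-back value was a median 92.9% of the others at 8 h (7 probes), 100% at 10 h (5 probes) and 114% at 16 h (10 probes), each above the 48.1% at 4 h. On the positive side it was 138% at 8 h (1 probe), 86.9% at 10 h (2 probes) and 62.1% at 16 h (3 probes), beside 56.0% at 4 h. These sets are small, and their probes had to be 1.5-fold on both 4 h arrays, whose values also enter the mean of the others. All 5 negative probes of the 10 h set are among the 40 as well. The choice thus differs between 4 h and the held-back times. The comparison cannot tell how much of the gap at 4 h follows from the choice.

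**Figure D5:**
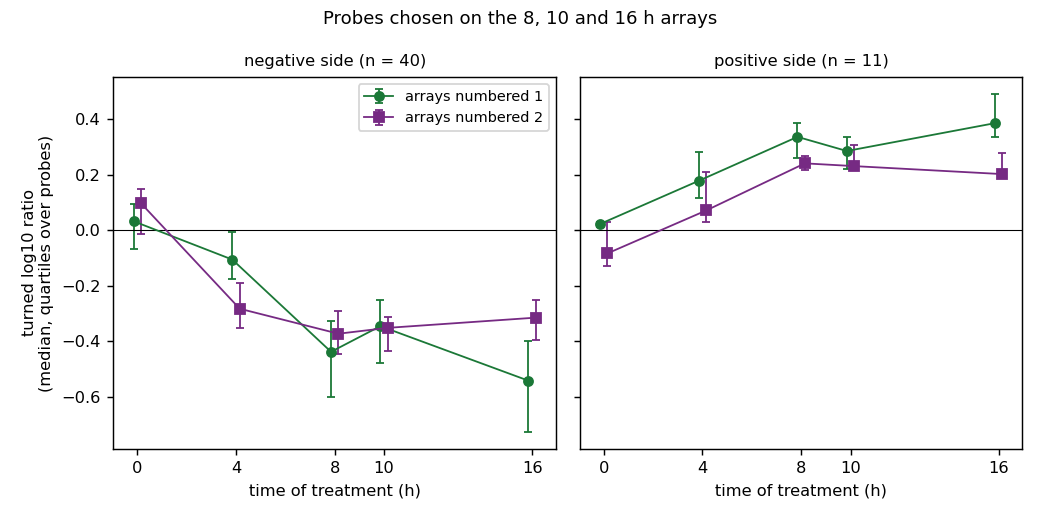
Median turned log10 ratio, with quartiles over probes, of the 40 negative (left) and 11 positive probes (right) chosen on the 8, 10 and 16 h arrays, by time in h and array number. The 4 h medians lie between those of 0 h and those of 8 h for both numbers, at -0.106 and -0.282 on the negative and 0.178 and 0.0710 on the positive side.

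Whether a probe differed between 4 h and later times was tested over all probes. The mean of 8 and 10 h minus 4 h gave 0 of 10535 probes by limma, with 97 (0.921%) at an unadjusted p under 0.05, and 16 h minus 4 h gave 0 of 10565, with 123 (1.16%). With the array number as a block 0 passed in both, with 290 and 339 probes under an unadjusted p of 0.05, less than the 527 and 528 that make up 5%. No single probe is thus shown to change after 4 h, and the partial values at 4 h are a description of sets. Over all probes the 4 h value correlated with that of 8, 10 and 16 h at 0.503, 0.486 and 0.424, and at 0.476, 0.448 and 0.383 without GP004 and GP005. Its correlation with 0 h was 0.00494. Effects that belong to an array number enter these correlations.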

How the data were processed

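The authors deposited 1 signed log ratio for each probe on each array, taken as log10 from the values alone: they stop at exactly 2 and -2. The base, the numerator, the scanner, the dyes and the steps of background and normalization are not stated by the sources at hand. Column medians lay between 0.00313 and 0.0165 without the limit values, so the arrays look centred. Signal over background is unknown, and precision is limited by how few arrays there are.

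Limit values of 2 and -2 were treated as not measured, and arrays with dexamethasone in channel 2 changed sign. limma 3.58.1 in R 4.3.3 (lmFit, eBayes) was fitted to all 10 arrays with 1 coefficient per time. Probes had to be measured on the arrays compared and on at least 8 arrays. P-values are two-sided and were adjusted by Benjamini-Hochberg over all probes tested. The 4 h fit, with and without the block, was run on simulated ratios to check that its coefficients were recovered. All arrays had the same spread there, so the p-values were not checked.

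The array number marks the channel orientation. Deviations of same-numbered arrays from the mean of their time had an r of 0.252 to 0.549 between times, in each of the 10 comparisons of times, so the number was used as a block in an alternative fit.

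Leading probes were ranked by the smaller of the turned 4 h ratios, both on 1 side. The rule took 10 per side and every called probe, of which 2 per side are printed, since no gene names them. The members, lists, rules and alternatives were chosen with earlier results of these data known.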

Additional observations from a re-analysis of the deposited data

How the results depend on the processing

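At 4 h, 19 of 23 alternatives gave 0 calls like the fit reported. Only the arrays compared gave 17, and the replicate block without 0 h replicate 1 gave 11, all negative and all in GP004 and GP005. GP005D3 and GP005D2 passed in both. The replicate block with the other orientation gave 1, and leaving out 1 array gave 0 to 1, the 1 arising without 4 h replicate 2. For 4 h minus 0 h, keeping the limit values gave 2, with the replicate block 2 as well, the replicate block without 0 h replicate 1 gave 2 and with the other orientation 1, and leaving out 1 array gave 0 to 53. For the mean of 8 and 10 h minus 4 h and for 16 h minus 4 h, leaving out 1 array gave 0 to 1, the 1 without 4 h replicate 2. The replicate block alone changed no call of these comparisons. The other orientation, with or without the block, gave 0.149 for GP005D2, 0.179 for GP005D3 and -0.0119 for GP102E6, and brought GP083A6 to 0.0466.

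The set of 96 probes held 527 at the lower minimum tried, 17 at 2-fold, 63 with arrays scaled and 234 with the other orientation. Its share on the same side, 81.1%, 70.2% and 55.4% at 8, 10 and 16 h with all plates, was 63.0% and 59.7% at 8 and 10 h for the lower minimum. It was 94.1% at 10 h for 2-fold, 82.3% at 10 h with arrays scaled and 68.9% at 8 h with the other orientation. The cause of these changes was not tested, except that another fold changes the set by construction. The median 4 h value of the late sets stayed within the spread of the arrays in 5 of 5 alternatives, which were chosen after seeing the data, as were those that join the block with another choice.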

Other observations

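Of the 234 probes of at least 1.5-fold on both 4 h arrays with 1 sign before turning, 186 were positive and 48 negative in the deposited ratios. Among the 186, 43.3% had the same deposited positive sign on both 0 h arrays, against 26.5% of all probes, with medians of -0.00186 and 0.141 on the first and second 0 h array. At 8, 10 and 16 h it was 70.3%, 71.0% and 61.3%, against 32.1%, 30.1% and 32.2% of all probes. Among the 48, 48.6% were negative on both 0 h arrays, against 19.0% of all probes, and 62.8%, 52.3% and 64.3% at 8, 10 and 16 h, against 25.5%, 26.9% and 25.6%.

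Values at the limits, left out above, numbered 1 positive and 25 negative in the deposited ratios of the first 4 h array, and 6 positive and 12 negative on the second.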
